A study of Mus musculus with 6 samples.

Results

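The genes described here are 39 interferon-stimulated genes of mouse, chosen by a list of names with no threshold on any value, out of 21690 genes that were measured. In the deposited peak lists 36 of them were found by Entrez identifier, and Ifit3, Oas2 and Iigp1 were not. The gene listed as Ddx58 is Rigi in newer annotation. Each gene was read through H3K4me3, a histone mark that sits at active promoters, in natural killer (NK) cells with and without Tcf7, which encodes the DNA-binding protein Tcf1. Splenic NK cells of Tcf7+/+ mice (strain label B6, called WT here) and of Tcf7-/- mice (strain label B6.129 Tcf7Tm1Cle, called KO) were grown in IL-2 at 500 ng/mL for 5 days, so both genotypes had been activated with the same cytokine. The labels name no interferon treatment. For each genotype they list 1 input library, 1 library made with an antibody against Tcf1 and 1 made with an antibody against H3K4me3, which is 6 libraries in 6 groups. The input libraries were not analysed here. The labels state neither the number nor the age of the mice nor whether cells were pooled. Because the strain label differs with the genotype, strain and genotype cannot be told apart. Each group was a single library, so nothing below was compared with the spread between replicates and nothing was tested.

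Interferons are cytokines released on viral or bacterial infection. Type I interferon acts through Ifnar1 and Ifnar2, and the kinases Jak1 and Tyk2 then activate Stat2, which with Irf9 is part of a complex that binds the interferon-stimulated response element (ISRE) in promoters. Type II interferon, which NK cells themselves make from Ifng, acts through Ifngr1 and Ifngr2, and the response runs through the gamma-activated site (GAS). The genes switched on in this way encode transcription factors that extend the response, sensors of foreign nucleic acid, enzymes and GTPases that block viruses and intracellular microbes, and a ubiquitin-like modifier with its enzymes.

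The peak lists held 13771 peaks with 6635272 tags (reads counted inside peaks) for H3K4me3 in WT and 11074 peaks with 7507763 tags in KO. These sums cover called peaks only, and the sequencing depth is unknown. The log2 ratio (KO over WT) of the median gene was 0.26 by tags and 0.32 by tags per kb of peak, so each ratio below is a log2 value after subtraction of that median. Of 9 markers of NK cells all 9 carried H3K4me3 at the transcription start site (TSS) in both genotypes, and Klrd1 among them was lower in KO past 1.5-fold by tags (452 and 236 tags, a centred ratio of -1.20) and within it per kb (0.23). None of 6 T cell, 4 B cell or 5 myeloid markers did so in both, although Cd3e (64 tags), Cd3d (35 tags) and Cd14 (95 tags) had a peak in WT alone. Tcf4 and Klf1, listed as markers of plasmacytoid dendritic and erythroid cells, were marked in both, and the other 3 genes of each of those lists in neither. At Tcf7 itself H3K4me3 came to 525 tags in WT and 535 in KO, which checks the promoter mark and not the deletion.

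The promoters of 31 of the 39 genes were found in a RefSeq promoter table (GRCm38.p6), which holds 300 bases around each start, 250 before and 50 after. A match to the ISRE was sought as GAAANNGAAA and to the GAS as TTCNNNGAA, each on both strands, and overlapping matches of 1 motif or of both were counted separately. The ISRE letters were found in 16 of 31 members (51.6%), against 3.94% of all 17492 genes in the table. The GAS letters were found in 10 members (32.3%), against 8.92% of all genes. Bst2, Eif2ak2, Gbp5, Gbp7 and Igtp carried both. The 23 ISRE matches began at positions -222 to 33 relative to the start (negative positions lie before it), with a median of -72, and 17 of the 23 lay within 150 bases upstream. The letters CTTTGAT, searched for the Tcf/Lef family, were in 0 of 31 members and in 3.74% of all genes; a match or its lack in such a window is a description of letters and not of binding.

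The 250 bases upstream of 7 genes are printed 5′ to 3′ on the strand of the gene, from RefSeq, because these genes hold the contrasts described below. Capitals mark the ISRE letters, the GAS letters or both. Isg15 (chr4:156200819-156201068, minus strand) and Ifit1 (chr19:34640639-34640888, plus strand) had several ISRE matches and little H3K4me3. Rsad2 (chr12:26456453-26456702, minus strand) and Gbp3 (chr3:142559794-142560043, plus strand) had ISRE matches and a peak in WT alone. Bst2 (chr8:71537473-71537722, minus strand) had ISRE matches with a GAS match that overlaps them. Irf1 (chr11:53769764-53770013, plus strand) and Ifit2 (chr19:34550444-34550693, plus strand) had a GAS match and no ISRE match. Ifit2, Gbp3 and Irf1 are among 7 members with several promoters in the table, and the first listed is printed. The WT peak of Gbp3 (chr3:142560119-142561810) lies downstream of its printed bases.
Isg15: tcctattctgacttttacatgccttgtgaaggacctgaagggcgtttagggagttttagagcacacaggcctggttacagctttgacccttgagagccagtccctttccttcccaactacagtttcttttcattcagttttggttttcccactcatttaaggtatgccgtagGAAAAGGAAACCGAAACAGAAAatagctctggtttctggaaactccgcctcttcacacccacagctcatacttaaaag
Ifit1: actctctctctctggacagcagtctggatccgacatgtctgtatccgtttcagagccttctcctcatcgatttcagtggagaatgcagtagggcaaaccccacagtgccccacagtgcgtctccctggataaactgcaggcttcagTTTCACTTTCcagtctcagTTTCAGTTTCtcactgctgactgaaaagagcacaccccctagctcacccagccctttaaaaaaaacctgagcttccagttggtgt
Rsad2: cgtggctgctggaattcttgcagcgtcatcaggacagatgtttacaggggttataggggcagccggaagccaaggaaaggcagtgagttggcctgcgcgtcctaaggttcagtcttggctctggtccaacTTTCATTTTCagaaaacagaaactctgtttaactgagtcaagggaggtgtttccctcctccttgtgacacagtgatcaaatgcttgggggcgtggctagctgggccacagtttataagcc
Gbp3: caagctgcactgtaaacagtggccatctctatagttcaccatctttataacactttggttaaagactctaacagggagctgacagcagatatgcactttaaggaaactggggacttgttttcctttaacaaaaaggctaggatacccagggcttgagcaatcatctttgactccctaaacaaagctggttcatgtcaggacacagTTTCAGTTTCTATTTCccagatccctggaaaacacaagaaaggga
Bst2: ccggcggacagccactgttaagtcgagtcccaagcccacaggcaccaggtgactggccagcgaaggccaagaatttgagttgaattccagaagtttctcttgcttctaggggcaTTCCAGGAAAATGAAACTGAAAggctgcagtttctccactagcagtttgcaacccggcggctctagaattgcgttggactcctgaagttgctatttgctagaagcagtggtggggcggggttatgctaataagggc
Irf1: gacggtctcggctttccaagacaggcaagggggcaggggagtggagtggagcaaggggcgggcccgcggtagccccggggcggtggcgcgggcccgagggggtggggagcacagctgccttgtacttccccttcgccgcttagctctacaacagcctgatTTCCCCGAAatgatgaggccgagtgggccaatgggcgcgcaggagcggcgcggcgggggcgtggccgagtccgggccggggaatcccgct
Ifit2: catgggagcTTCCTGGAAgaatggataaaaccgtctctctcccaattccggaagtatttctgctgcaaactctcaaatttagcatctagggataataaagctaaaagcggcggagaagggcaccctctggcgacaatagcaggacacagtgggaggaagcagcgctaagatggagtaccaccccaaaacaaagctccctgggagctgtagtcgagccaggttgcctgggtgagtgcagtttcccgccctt

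The promoters of these genes were poorer in CpG than those of most genes with the same mark. The observed over expected CpG ratio, which is near 1 in a CpG island and low in bulk DNA, had a median of 0.377 in the 31 members and 0.576 in all 17492 genes. Among genes with H3K4me3 in both genotypes the medians were 0.393 for 28 members and 0.800 for 8521 genes. A ratio under 0.4 was found in 16 of those 28 members (57.1%) and in 10.0% of all genes marked in both. Irf1 (0.912), Samhd1 (0.907), Stat2 (0.834) and Ifih1 (0.819) were at the CpG-rich end, and Sp100 (0.119), Oas3 (0.136), Gbp2 (0.147) and Ifi35 (0.165) at the other. Ifit3, with no peak in either genotype, had the lowest value of the 31, at 0.056. Across the 28 members the ratio and the log2 tags in WT had a Pearson r of 0.45 and a Spearman rho of 0.40, against 0.27 and 0.28 across 8521 genes. These correlations run across genes within 1 library and share its depth and base composition. For each gene CpG was taken from the first promoter listed, whereas tags were summed over all its starts.

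**Figure D1:**
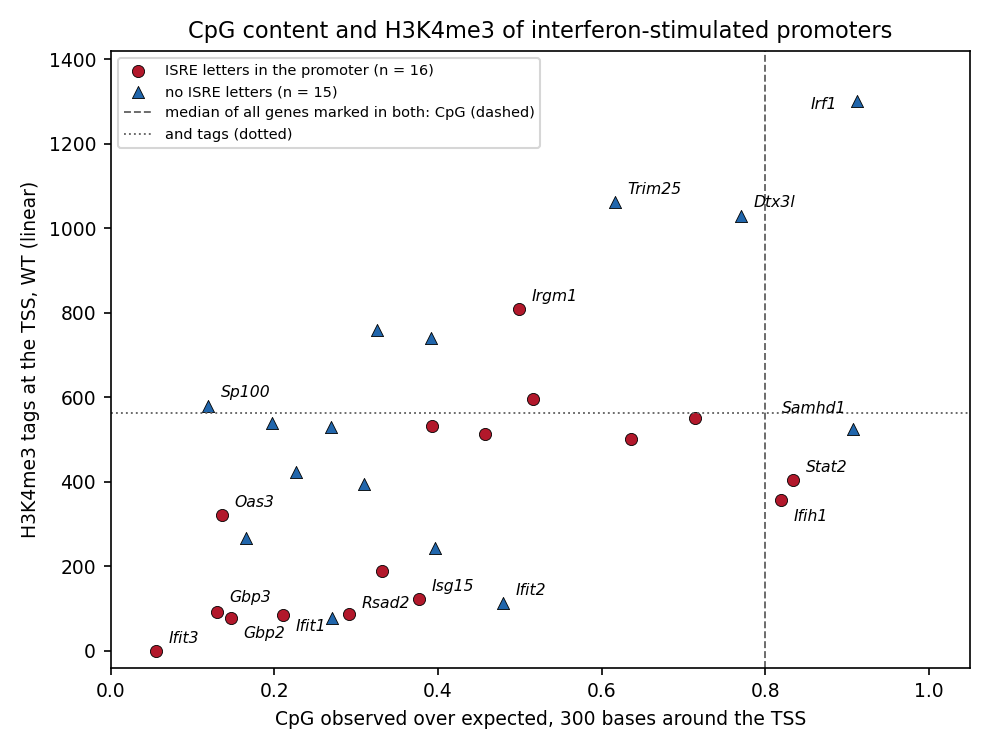
CpG observed over expected in the 300-base promoter window (x axis) against H3K4me3 tags at the TSS in WT (y axis, linear), 1 point per member with a promoter in the table (31 genes, circles with and triangles without the ISRE letters). CpG is that of the first promoter listed for each gene. Lines mark the medians of all genes marked in both, 0.800 for CpG (dashed) and 562 tags (dotted); Irf1, Samhd1, Stat2 and Ifih1 lie right of the dashed line and the other members left of it, and Ifit3 is at 0 tags because no peak was called.

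H3K4me3 was called within 1 kb of a TSS in both genotypes at 34 of the 39 genes (87.2%), against 47.5% of all genes. Rsad2 and Gbp3 had a peak in WT alone, which is 5.13% of the members, against 5.87% of all genes. No member had a peak in KO alone, against 0.143% of all genes. Ifit3, Oas2 and Iigp1 had none in either genotype (7.69%, against 46.5%). The positions of the starts of Oas2 and Iigp1 were not known from the sources used here, and no H3K4me3 peak lay within 2.5 kb of either end of these 2 genes. Rsad2, whose product viperin blocks the replication of many viruses, had 87 tags in WT, or 58.9 per kb. Gbp3, a guanylate-binding protein, had 92 tags, or 54.4 per kb. The median gene with a peak in WT alone had 75 tags. A peak that was not called is not a count of 0, and the smallest peak of the KO list held 22 tags.

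Among the 34 genes marked in both, the median was 508 tags in WT and 612 in KO, against 563 and 683 for all 10298 genes. Their marks were somewhat broader and less dense than those of other genes. The median width was 2572 bp (WT) and 2421 bp (KO), against 2339 and 2240 bp for all genes. The median density was 167 tags per kb in WT and 223 in KO, against 233 and 300.4 tags per kb for all genes. In WT 7 of the 34 (20.6%) had 250 tags or fewer, against 14.0% of all genes. By density the members ranged in WT from 47.4 tags per kb at Ifit1 to 306 at Irf1.

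**Figure D2:**
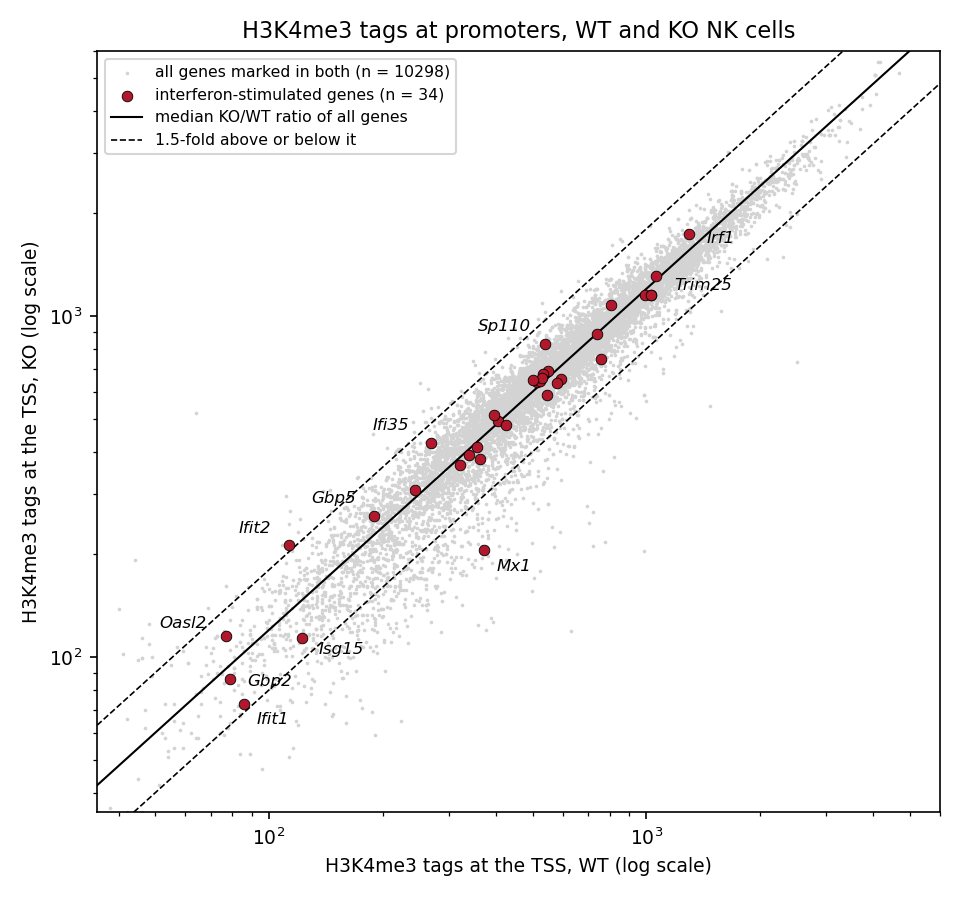
H3K4me3 tags at the TSS in WT (x axis) and KO (y axis), both on log scales, 1 point per gene, with all genes marked in both genotypes in grey and the 34 members in colour. The lines mark the ratio of the median gene and 1.5-fold to either side of it; Ifit2 lies above the band, Mx1 below it, and the other 32 members inside.

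The transcription factors of the response had ratios close to that of the median gene. Irf1, an early-induced activator of interferon and of its target genes, had 1302 tags in WT and 1736 in KO, the most of any member. Its density of 306 tags per kb in WT and 386 in KO was also the highest of the 34. The centred log2 ratio of Irf1 was 0.15 (95% counting interval 0.05 to 0.25) by tags and 0.01 per kb. Counting intervals assume that tags are independent molecules and cover counting error only. Irf9, the DNA-binding subunit of the type I complex, had 740 tags in WT and 883 in KO, a ratio of -0.01. Stat2, its partner, had 404 and 493 tags, a ratio of 0.02, in a region that also holds the start of Apof. Irf7, which amplifies the production of type I interferon, had 395 and 513 tags, a ratio of 0.11 with an interval of -0.08 to 0.30. All 4 factors lay between 0.01 and 0.20 per kb, and none passed 1.5-fold.

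In the Ifit family, whose products bind foreign RNA, the 3 genes on chromosome 19 differed from each other. Ifit2 (chr19:34550271-34552020 in WT and 34550200-34551911 in KO) had 113 tags in WT and 213 in KO over peaks of 1750 and 1712 bp. It was the only member called higher in KO, past 1.5-fold with at least 100 tags in 1 library or both, a call made for 0.738% of all genes. Its log2 ratio was 0.65 (interval 0.32 to 0.98), which is 1.57-fold, and 0.62 per kb, where 0.748% of all genes were called higher. Ifit1 had 86 tags in WT and 73 in KO, a ratio of -0.50 (interval -0.95 to -0.05), at 47.4 and 49.5 tags per kb. This ratio was inside 1.5-fold, and Ifit1 had fewer than 100 tags in both libraries. Ifit3 had no peak in either.

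The Mx, Gbp and Irg genes encode GTPases that act on viruses or on vacuoles that hold microbes. Mx1 (chr16:97447035-97462906, minus strand, a transcribed pseudogene in the RefSeq reference) was the only member called lower in KO, a call made for 4.69% of all genes. It had 371 tags in WT and 206 in KO, a log2 ratio of -1.11 (interval -1.36 to -0.87), or 0.462 times the WT level relative to the median gene. The 2 peaks differed in length, with a centred log2 ratio of width of -0.68. The WT peak (chr16:97460117-97463350, 3234 bp) ran 2789 bp into the gene, and the KO peak (chr16:97461327-97463275, 1949 bp) ran 1579 bp. Per kb of peak Mx1 had 115 tags in WT and 106 in KO, a centred ratio of -0.44 (interval -0.69 to -0.19). That ratio is inside 1.5-fold, and 0 members were called lower per kb, against 3.8% of all genes.

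The guanylate-binding protein genes clustered on chromosome 3 spanned a wide range of density, with Gbp3, given above, at the low end. Gbp7 had 514 tags in WT and 640 in KO, or 228 and 298 per kb. Gbp5, which promotes inflammasome assembly, had 190 and 260 tags, or 97.1 and 130 per kb. Gbp2 had 79 and 86 tags, or 54.0 and 65.4 per kb, and was the narrowest member, at 1464 and 1316 bp. The log2 ratios by tags were 0.05 at Gbp7, 0.19 at Gbp5 and -0.14 at Gbp2, and the interval of Gbp5 was -0.08 to 0.46. Reads from close relatives in such clusters may be hard to place, and how the authors treated reads with several matches was not given in the sources used here.

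Irgm1, a regulator of immunity-related GTPases and of autophagy, had 808 tags in WT and 1074 in KO over 4530 and 4118 bp. Its ratio was 0.15 (interval 0.01 to 0.28) by tags and 0.23 per kb. Igtp, a GTPase of the same family, had 531 and 676 tags, a ratio of 0.08 by tags and -0.02 per kb, in a region that also holds a start of Irgm2.

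In the Oas family, whose products sense double-stranded RNA or resemble those that do, the 3 marked genes had ratios with counting intervals that spanned 0. Oasl2 had the fewest tags of the 34 genes in WT, 77, and 115 in KO over 1528 and 1789 bp, a ratio of 0.31 (interval -0.10 to 0.73) by tags and 0.03 per kb. Oasl1 had 244 and 308 tags, and Oas3 had 321 and 365. Their ratios were 0.07 and -0.08 by tags, and 0.14 and 0.15 per kb.

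None of the genes of the ubiquitin-like system passed 1.5-fold. Isg15, the modifier itself, had 122 tags in WT and 114 in KO, at 65.5 and 71.7 per kb, a ratio of -0.36 (interval -0.73 to 0.01). The regions on either side of Isg15 were also lower than the median gene. The region at Agrn had 558 and 474 tags, a ratio of -0.50, and the region on the other side had 463 and 418 tags, a ratio of -0.41. Usp18, the protease that removes Isg15 from proteins, had 545 and 586 tags, a ratio of -0.16. Herc6, a ligase for Isg15 in mouse, had 424 and 479 tags, a ratio of -0.09. Trim25, a ubiquitin ligase that activates Rigi, had 1061 and 1312 tags, the second most of the members in WT, at 300.3 and 372 per kb and a ratio of 0.04. Per kb the 4 ratios lay between -0.19 and -0.01, on a scale where the median of all genes is 0 by construction, and only the counting interval of Usp18 (-0.36 to -0.02) did not span 0.

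The sensors of nucleic acid carried peaks in both genotypes and none passed 1.5-fold. Ddx58 had 550 tags in WT and 689 in KO, and Ifih1 had 356 and 413; both encode helicases that detect viral RNA. Their ratios were 0.06 and -0.05 by tags and 0.05 and 0.25 per kb. Dhx58, a regulator of those helicases, had 339 and 391 tags, a ratio of -0.06 by tags and -0.26 per kb. Eif2ak2, the kinase that halts translation on binding double-stranded RNA, had 502 and 649 tags, a ratio of 0.11 by tags and -0.21 per kb. Zbp1, a sensor of Z-form nucleic acid that triggers cell death, had 363 and 380 tags, a ratio of -0.20 (interval -0.41 to 0.01) by tags and -0.42 per kb. Per kb, 4 of the 6 genes in this group had counting intervals wholly below 0 and 1, Ifih1, had one wholly above (0.05 to 0.46), against 23.0% and 22.2% of all genes. WT peaks were wider at most members, but 4 of the 6 had wider peaks in KO than in WT.

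Adar, which edits adenosine in double-stranded RNA, was the only member with separate regions at different starts, and these differed from each other. At the upstream start (chr3:89714775-89715903 in WT) it had 369 tags in WT and 237 in KO, at 327 and 197 per kb. The ratio there was -0.90 (interval -1.14 to -0.67) by tags and -1.05 per kb. At the downstream start (chr3:89730392-89732552 in WT) it had 390 and 513 tags, at 180 and 230 per kb, a ratio of 0.13 (interval -0.06 to 0.32) and 0.03 per kb. Summed over both starts Adar had 759 and 750 tags, a ratio of -0.28, inside 1.5-fold. The split by start was made after the values were seen.

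Among the other effectors, Bst2, which tethers budding virus to the cell surface, had 595 tags in WT and 655 in KO, a ratio of -0.13 by tags and 0.00 per kb. Samhd1, which depletes nucleotides needed for reverse transcription, had 524 and 645 tags, a ratio of 0.04 by tags and 0.31 per kb. Xaf1, a promoter of apoptosis, had 530 and 658 tags, a ratio of 0.05. Ifi35 had 268 and 425 tags, a ratio of 0.40 (interval 0.18 to 0.62) by tags and 0.34 per kb. The neighbours of Ifi35 went both ways. Rpl27 had 400 and 578 tags, a ratio of 0.27, and the region shared by Rnd2 and Vat1 had 351 and 295 tags, a ratio of -0.51.

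The genes of nuclear bodies and of the Parp family included broad marks, with a median width of 4201 bp in WT and 3460 bp in KO. Sp110 had 539 tags in WT and 830 in KO over 5209 and 5254 bp, a ratio of 0.36 (interval 0.20 to 0.52) by tags and 0.29 per kb, and it shares its region with Sp140. Its WT tags come from 2 peaks of 350 and 189 tags and its KO tags from 1 peak. The ratio of Sp110 was 0.98, past 1.5-fold, when the peaks of each library were taken without merging, and 0.76 when the RefSeq 5′ end was added as a start. Sp100, a core protein of nuclear bodies, had 580 and 638 tags over 4382 and 3460 bp, a ratio of -0.13 by tags and 0.16 per kb. Parp9 and Dtx3l, whose products form a complex that modifies histones in the interferon response, lie head to head and share 1 region. It held 1030 tags in WT and 1151 in KO over 3855 and 3101 bp, a ratio of -0.10 by tags and 0.15 per kb. Parp14 had 992 and 1154 tags, a ratio of -0.05. All 5 genes of this group were above 0 per kb, with Parp14 at 0.00, and 4 of the 5 were below 0 by tags. The 34 genes therefore rest on 33 distinct regions.

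Across the 34 genes the median ratio was 0.01 by tags and 0.05 per kb, and 32 lay within 1.5-fold by tags. By tags 17 were above 0 and 17 below, and per kb 21 were above and 13 below. The SD across members was 0.29 by tags, and that across all genes was 0.29. Per kb it was 0.23 against 0.27. The counting interval lay wholly above 0 for 5 members (Irf1, Irgm1, Ifit2, Sp110 and Ifi35) and wholly below for 3 (Ifit1, Mx1 and Adar), against 19.4% and 22.3% of all genes. With 1 call in each direction, the number of calls among the members is too small to be set apart from the background.

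**Figure D3:**
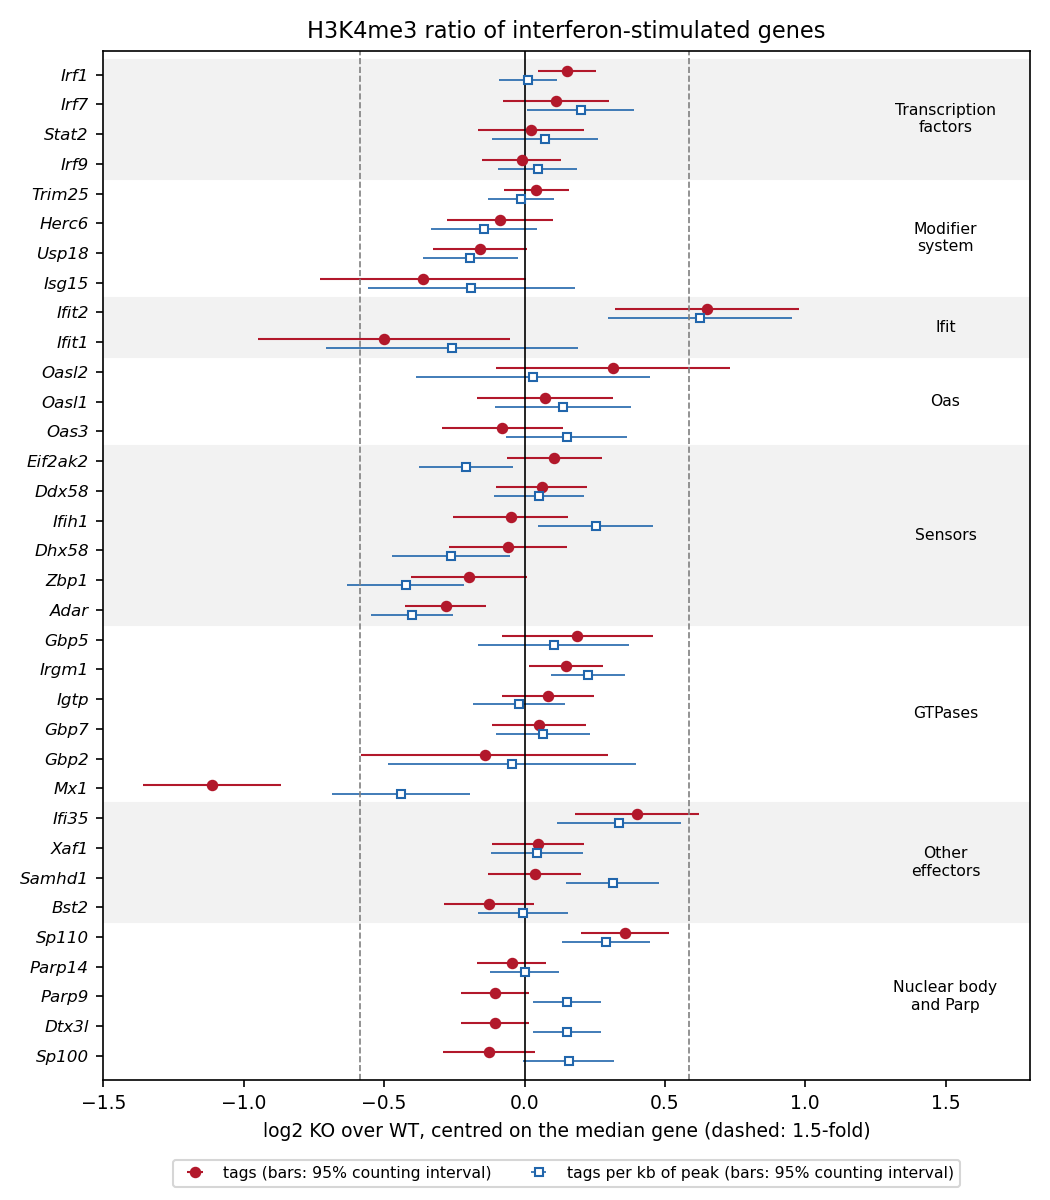
Centred log2 ratio of KO over WT for each of the 34 members, ordered by role, by tags (filled circles) and per kb of peak (open squares), with 95% counting intervals as bars and 1.5-fold dashed. Most genes lie within 1.5-fold of the median gene, with Ifit2 at 0.65 and Mx1 at -1.11 by tags.

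The ratios by tags moved with the width of the called peaks. WT peaks were the wider ones at 24 of the 34 members (70.6%), against 64.9% of all genes. Across members the log2 ratio of tags and that of width had an r of 0.61 (n = 34), and across all genes 0.43 (n = 10298). Mx1 was the lowest member on both ratios (-1.11 by tags and -0.68 by width), and Parp9 and Dtx3l entered with the same region. The r without Mx1 was not computed, so the 2 values of r do not show a closer link in the members. Both ratios come from the same peaks and the same 2 libraries.

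The mark lay mostly downstream of the start. Each peak was measured from the known start nearest its summit, chosen separately in each library. In WT the strongest peak reached farther into the gene than upstream at 35 of the 36 marked members (97.2%), against 80.2% of all genes, and the exception was Oasl1. The reach into the gene had a median of 1834 bp in the members and 1314 bp in all genes, while the reach upstream was 768.5 and 785 bp. In KO 31 of 34 members (91.2%) reached farther downstream, against 80.9% of all genes, with medians of 1684.5 and 1329 bp. The summit was downstream of the start in 31 of the 36 in WT (86.1%, against 84.4%) and in 28 of the 34 in KO (82.4%, against 85.4%). At Irf9 the start used differed, with the summit at 178 bp from position 55603571 in WT and at -198 bp from 55603985 in KO. Irf1 and Ifit2 counted as upstream from starts (53770473 and 34551088) that lie downstream of those next to the printed bases. These side counts therefore depend on the start chosen. The excess over other genes was in the length of the downstream side and not in the side on which the summit lay.

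**Figure D4:**
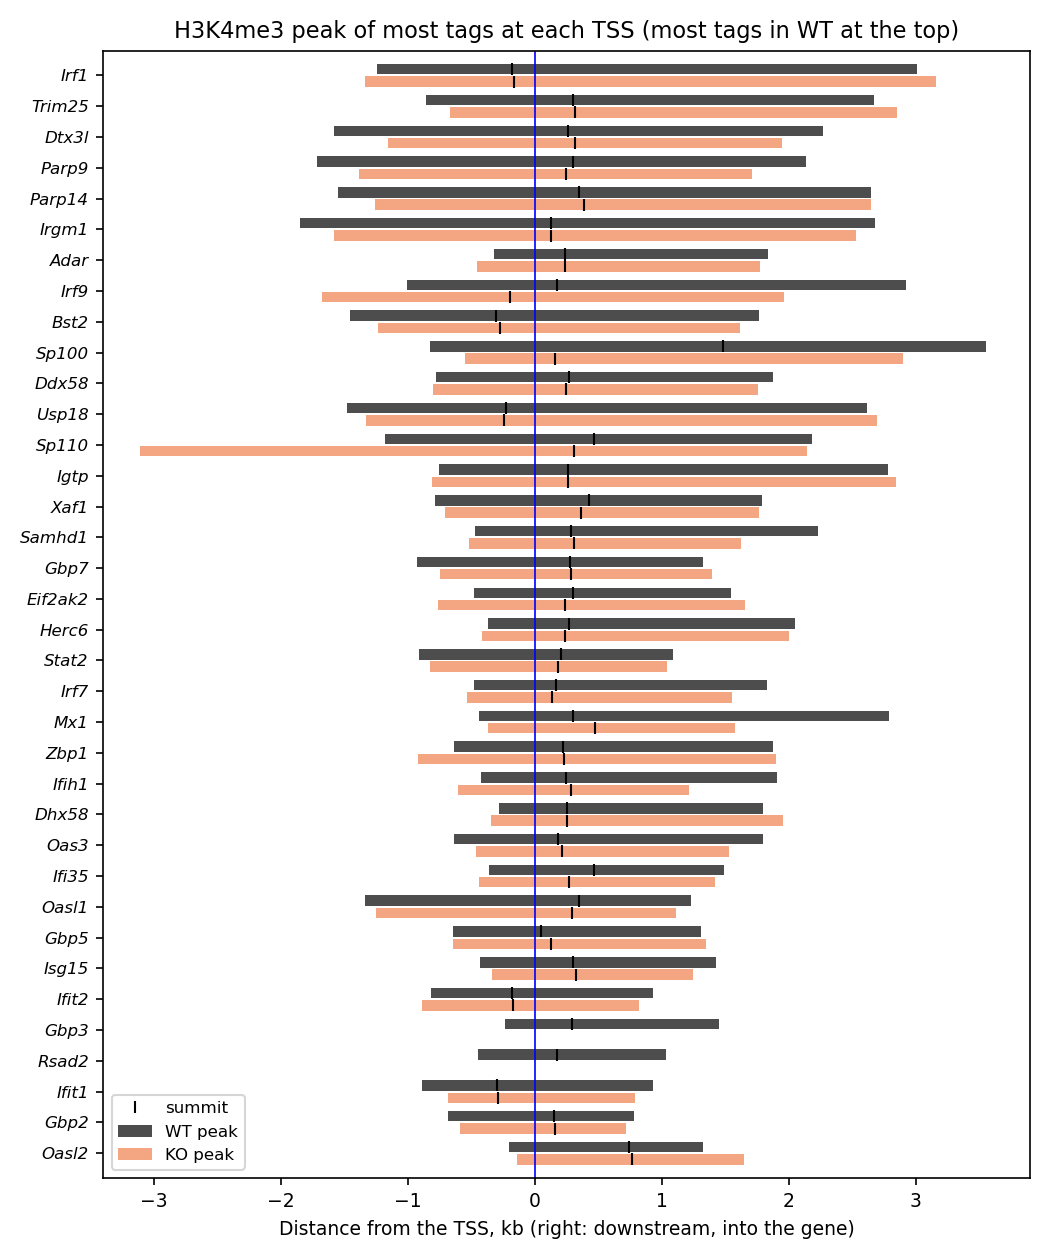
Extent of the strongest H3K4me3 peak of each marked member relative to its TSS (x axis, kb, downstream to the right), with 1 bar per library and a mark at the summit. Each bar is placed from the known start nearest its summit, which for Irf9 differs between WT and KO. Nearly all bars reach farther to the right than to the left, and the WT bar of Mx1 ends farther downstream than its KO bar.

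The 13 members with the ISRE letters and peaks in both genotypes had a median of 404 tags in WT and a median ratio of 0.02. The 15 marked in both without these letters had 530 tags and 0.05. Rsad2, Gbp3 and Ifit3, with a peak in WT alone or in neither, carried the ISRE letters. Oas2 and Iigp1, also with no peak, were not in the promoter table. Of all 689 genes with the ISRE letters 38 had a peak in WT alone and 330 in neither. Among all 17492 genes in the table these counts were 1004 and 7942.

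Several members lie on chromosome 11 with Tcf7. Irf1 lies 1.49 Mb from Tcf7, Irgm1 3.38 Mb and Igtp 5.92 Mb, with the ratios of 0.15, 0.15 and 0.08 given above. The 146 genes within 10 Mb of Tcf7 marked in both had a median ratio of 0.03. Strain and genotype cannot be told apart at these genes.

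Peaks of the Tcf1 antibody near the members were counted beside those near all genes. A peak called in WT alone was in the gene or within 50 kb at 2 of 39 members (5.13%), against 3.87% of all genes. These were Ifit1 and Ifit3, which share 1 peak (chr19:34632191-34632655). It had 29 tags, a score of 53.9 and a false discovery rate (FDR) of 27.5%, all as deposited by the authors. It was centred at -8.50 kb from the start of Ifit1, which is upstream, and overlapped no H3K4me3 peak. A peak called in both genotypes lay near Parp9 and Dtx3l, where 0.581% of all genes had one. This peak (chr16:35981554-35982020 in WT) held 113 tags in WT and 103 in KO and lay inside the H3K4me3 region of the neighbouring gene Kpna1. Its deposited score was 67.05 in WT and 199.46 in KO. A peak called in KO alone, where the target of the antibody is absent, lay near 6 members (15.4%), against 20.2% of all genes. These were Sp110, Sp100, Xaf1, Dhx58, Oasl2 and Herc6, with peaks of 13 to 32 tags and FDRs of 68.2% to 100%. No peak near any member was called in WT alone with a score of 100 or more, against 0.309% of all genes.

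The rest of the pathway was read in the same way. Over all genes 47.5% were marked in both, 5.87% in WT alone and 46.5% in neither. By tags 0.738% of all genes marked in both were called higher and 4.69% lower. Of 14 receptor and JAK-STAT genes 13 were marked in both and none passed 1.5-fold, with a median ratio of -0.11 by tags and 0.04 per kb. Ifngr2 had a peak in WT alone, with 62 tags. Socs3, a feedback inhibitor of cytokine receptors, had 861 and 788 tags (-0.39), and Ifngr1 had 1080 and 1027 (-0.34). Ifngr1 was -0.34 by tags and 0.32 per kb, with peaks of 6331 bp in WT and 3858 bp in KO.

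Of the other interferon regulatory factors 5 of 6 were measured, all marked in both, and none passed 1.5-fold. Irf5 had 611 and 494 tags (-0.57), Irf4 had 215 and 183 (-0.50), Irf8 had 2476 and 2497 (-0.25) and Irf3 had 620 and 874 (0.23). Of 10 interferon genes 8 were marked in neither. Ifng, the interferon made by NK cells, had 290 and 317 tags (-0.14), and Ifnz had 204 and 238 (-0.04). Of 11 further genes of nucleic acid sensing 8 were marked in both and none passed 1.5-fold. Cgas, which senses DNA in the cytosol, had 710 and 1200 tags (0.49).

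A longer list of other interferon-stimulated genes, 57 of 60 measured, had 45 marked in both, with a median ratio of -0.02 by tags and -0.04 per kb. None was called higher by tags and 3 were called lower, against 0.738% and 4.69% of all genes. Per kb 1 was called higher and 2 lower, against 0.748% and 3.8% of all genes. Isg20, an exonuclease that degrades viral RNA, had 323 tags in WT and 196 in KO (-0.98, and -0.67 per kb). Trim30a had 403 and 288 tags (-0.75, and -0.59 per kb). Ifi27 had 194 and 151 tags (-0.63), and at -0.22 per kb it was inside 1.5-fold. Per kb Psmb8, a subunit of the immunoproteasome, was called higher at 0.64, and by tags it was -0.04. Tgtp1 (77 tags), Slfn5 (55) and Oas1g (34) had a peak in WT alone (5.26%, against 5.87% of all genes). The 9 genes marked in neither (15.8%, against 46.5% of all genes) included the chemokine genes Cxcl9 and Cxcl10.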

How the data were processed

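H3K4me3 and Tcf1 were profiled by ChIP-seq in WT and KO NK cells, 1 library per group. Per the submitters' processing notes, MACS 1.4 and Bowtie2 2.1.0 were used; GRCh37 is noted beside GRCm38 and mm10 without a stated role. The settings and control of the peak calls are not given in the sources used here, and positions were read as GRCm38/mm10. Per the file headers, each deposited list gives per peak an unscaled count of tags. The score deposited by the authors is a multiple of −log10 of each peak's p-value. The fold enrichment deposited by the authors is a ratio over the caller's background, and the deposited FDR is in percent.

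Starts were taken from the RefSeq promoter table (17492 genes, 31 members) or from features in the lists (2511 genes, 6 members). No strand was known for 1885 genes, 2 of them members; 198 genes with a peak but no known start were left out. Peaks of both libraries overlapping by 1 bp were merged into regions, and regions within 1 kb of a start were given to the gene. Tags were summed, and log2(KO/WT) was centred on its median over genes with peaks in both libraries. A call needed 1.5-fold and at least 100 tags in 1 library or both. Intervals are 95% Poisson intervals of counts and cover counting error only; PCR copies were not identified. No test is possible with 1 library per group. The code was tested on simulated data.

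Members, lists and alternatives were named with earlier results of these data known, although the rule for members uses no measured value. The rule for full values took members called, marked in 1 genotype or neither, highest and lowest in tags or width, near a Tcf1 peak, sharing a region, within 10 Mb of Tcf7, and the transcription factors. In the wider lists it took called genes and up to 4 with the largest ratio; Ifngr2, genes of the wider list with a peak in WT alone or none, and neighbouring genes were named outside it after their values were seen. Alternatives were other windows, score and FDR limits, separate peaks, centring, folds and Tcf1 distances. Python 3.11.15, numpy 2.4.6, pandas 2.3.3 and matplotlib 3.10.9 were used. The values of a single gene of the wider lists are not reported here.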

Additional observations from a re-analysis of the deposited data

How the results depend on the processing

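No paired analysis was possible because each group had 1 library. Sequencing depth is unknown, so ratios are relative to the median gene, and weak peaks near the calling limit may be missed in either list. Of 97 alternatives to the counts and medians, 77 left counts within 1.5 times and medians within 0.1 (log2) of the values above. Genes marked in WT alone went from 2 to 4 with scores of at least 100 and to 6 with FDRs of at most 1%. The share of all genes under these limits was not computed. The KO peaks of Oasl2, Isg15, Gbp2 and Ifit1 had deposited FDRs of 2.15% to 19.48%, and their WT peaks 0.03% to 0.11%. Over all genes the median fold enrichment of the strongest peak was 39.94 in WT and 19.99 in KO. The same limit thus removes more in KO, and the added genes are not a measured loss of the mark. Genes called higher by tags went from 1 to 2 with separate peaks (Sp110 at 0.98 is added), to 3 at a lower fold limit (0.32 on the log2 scale) and to 0 at 2-fold. They went to 2 (Sp110 at 0.76 is added) when the 5′ end of the RefSeq gene was added as a start, an alternative chosen after seeing the data. Genes called lower by tags went from 1 to 2 at the lower limit. Per kb, genes called higher went from 1 to 0 when centred on summed tags per kb, to 2 at the lower limit and to 0 at 2-fold, and genes called lower from 0 to 3 at the lower limit. The median per kb went from 0.05 to -0.084 when centred on summed tags per kb. Members near a Tcf1 peak in WT alone went from 2 to 1 at 10 kb, to 4 at 100 kb and to 0 with scores of at least 100. Those near a peak in KO alone went from 6 to 3, 12 and 0, and near a peak in both from 2 to 1 at 10 kb and 0 with scores of at least 100. For peaks called in both the score limit was applied to the WT peak only. For single genes 254 of 266 alternatives stayed within the counting interval and none changed the sign of a call. Of the 12 that did not stay, 10 came from taking tags per kb of peak, where 10 genes moved and 24 did not. Genes that lost their mark under a limit were not counted. Across all alternatives Mx1 ran from -1.12 to -0.44 and Ifit2 from 0.62 to 0.74. Beyond the settings themselves, the cause was not tested.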

Other observations

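At the locus of Sp100 and Sp110 on chromosome 1, KO had an H3K4me3 peak with no WT counterpart, at the RefSeq 5′ end of Sp110 (chr1:85607759-85612130). It held 265 tags over 4372 bp, or 60.6 tags per kb, with an FDR of 16.1% as deposited by the authors. A KO peak of the Tcf1 antibody (chr1:85609688-85610366) with 32 tags overlapped it, and 2 more KO peaks of that antibody, with 20 and 18 tags, lay within 50 kb of both genes. No peak of the WT Tcf1 list did. These KO peaks of the Tcf1 antibody had deposited FDRs of 68.2% or more. The whole KO list of that antibody held 5139 peaks, and the WT list 866. The locus holds repeated copies of related genes, so the placing of reads there is uncertain.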
